A study of Mus musculus with 4 samples.

Results

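Of the 55487 genes in the count table of sorted mouse liver myeloid cells, 7 encode acute-phase proteins that myeloid cells can make and are described here: Saa1, Saa2, Saa3, Hp, Lrg1, Orm1 and Pglyrp1. Saa3 was chosen by its measured rise in fl/fl libraries, and the other members were set beside it as serum amyloid and acute-phase genes. The values that chose Saa3 come from the only comparison of the study, so all differences of the 7 genes between the genotypes are given as a description, without a test. All 7 were present in the table, and 6 of the 7 were among the 13496 genes that passed the filter on low counts. Saa2 did not pass it.

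The cells came from livers of mice with LysM-Cre and either a floxed IL10R allele on both chromosomes (fl/fl, 2 libraries) or the unmodified allele (wt/wt, 2 libraries). LysM-Cre places Cre recombinase in the lysozyme 2 locus, which is active in monocytes, macrophages and granulocytes, and both groups carried it. The sort took CD45+ CD11b+ cells that lacked CD3 and CD11c, a gate that holds monocytes, macrophages and granulocytes together, and poly(A) RNA was sequenced. The labels name IL10R without saying which chain is floxed, and give neither age, sex or treatment of the mice nor whether libraries of the same genotype are separate animals. Any p-value therefore measures only the spread between these samples.

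The acute-phase response is the change in plasma proteins that follows infection or injury. Interleukin-6, interleukin-1 and tumour necrosis factor drive it, mainly in hepatocytes, through the transcription factors STAT3, C/EBP and NF-kB, and interleukin-10 acts on myeloid cells to restrain the release of these cytokines. Serum amyloid A1 and A2 are made by hepatocytes and travel on high-density lipoprotein, while serum amyloid A3 is also made outside the liver parenchyma, by macrophages and adipose tissue among others. Haptoglobin (Hp), leucine-rich alpha-2-glycoprotein (Lrg1) and alpha-1-acid glycoprotein (Orm1) are secreted by the liver and are also made by developing or mature neutrophils, and Pglyrp1 is a peptidoglycan-binding protein of neutrophil granules.

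Library totals ran from 17154042 to 26441014 counts. Il10ra, the ligand-binding receptor chain and taken as the floxed gene, stood at 1111 and 993 CPM (library-scaled counts, with trimmed mean of M-values or TMM factors) in wt/wt 1 and wt/wt 2, while fl/fl 1 held 69.3 and fl/fl 2 held 14.8 CPM. The gate was met at the RNA level by Ptprc (CD45) at 1095 to 1580 CPM and Itgam (CD11b) at 368 to 501 CPM, with Cd3e at 0 to 2 counts, while Itgax (CD11c) was still present, with 158 and 134 CPM in wt/wt against 24.6 and 47.1 in fl/fl (a log2 fold change of −2.02, adjusted p = 0.0197 by edgeR's quasi-likelihood test). Lyz2, the gene that hosts Cre, held 18.4 to 80.4 CPM. Csf1r, a further myeloid marker, held 1677 and 1564 CPM in wt/wt against 817 and 1179 in fl/fl (−0.70, adjusted p = 0.116 by the same test). Cd68, another, held 330 and 352 CPM against 235 and 196 (−0.66, adjusted p = 0.0736). Both were lower in both fl/fl libraries, and neither reached an adjusted p under 0.05. The fl/fl libraries stood apart from each other. Xist, the RNA of X inactivation, was seen in fl/fl 2 alone (4298 counts), where the sum of 4 Y-linked genes was 1 count against 3455 to 6562 elsewhere, so that fl/fl 2 came from a female and the others from males. The values of fl/fl 1 and fl/fl 2 are therefore given separately throughout. In RNA of a mixed sort, fewer cells of a type and less RNA per cell cannot be told apart.

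The 3 serum amyloid genes lie close together on chromosome 7, and how well reads can be told apart between them decides how far their counts can be read. The first 120 coding bases (GENCODE M21 transcripts, GRCm38) are shown with capitals at the positions where Saa2 or Saa3 differs from Saa1.
Saa1: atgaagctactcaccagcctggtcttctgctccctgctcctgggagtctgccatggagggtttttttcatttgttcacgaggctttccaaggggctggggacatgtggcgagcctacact
Saa2: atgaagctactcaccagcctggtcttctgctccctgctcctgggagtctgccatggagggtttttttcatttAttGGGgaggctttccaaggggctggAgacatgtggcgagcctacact
Saa3: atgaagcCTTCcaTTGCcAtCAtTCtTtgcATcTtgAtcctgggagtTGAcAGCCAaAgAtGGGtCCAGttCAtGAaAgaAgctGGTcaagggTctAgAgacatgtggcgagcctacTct
Over this stretch Saa2 differed from Saa1 at 5 positions and Saa3 at 48. Over the whole coding sequence Saa1 and Saa2 were 95.1% identical (351 of 369 bases), whereas Saa3 was 76.2% identical to Saa1 and 74.5% to Saa2. Of all 50-base stretches of the principal transcript, 1.78% of those of Saa3 (9 of 506), 14.8% of those of Saa1 and 9.12% of those of Saa2 occurred in a transcript of another gene, in each case another serum amyloid gene. Reads of Saa3 are thus nearly all distinct, and the split of reads between Saa1 and Saa2 is less certain. Orm1 shared 20.4% of its 50-base stretches with Orm2 and Orm3, and its coding sequence was 89.9% and 86.5% identical to theirs. Hp, Lrg1 and Pglyrp1 shared none.

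The sequences before the start of transcription are shown because the serum amyloid genes share the C/EBP and NF-kB inputs of the acute-phase response but differed widely in level here. RefSeq (GRCm38.p6) gave a promoter for 5 members, and each line runs from 250 to 56 bases before the RefSeq start, 5′ to 3′ on the strand of the gene. Capitals mark matches on either strand to TTNNGNAA (the C/EBP pattern), GGGNNNNNCC (NF-kB) or TTCNNNGAA (STAT). Hp and Orm1 were not matched.
Saa3, chr7:46715732-46715926, minus strand: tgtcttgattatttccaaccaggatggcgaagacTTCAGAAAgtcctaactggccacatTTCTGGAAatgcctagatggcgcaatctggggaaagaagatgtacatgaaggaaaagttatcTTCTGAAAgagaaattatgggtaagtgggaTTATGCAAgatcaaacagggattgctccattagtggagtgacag
Saa1, chr7:46743036-46743230, minus strand: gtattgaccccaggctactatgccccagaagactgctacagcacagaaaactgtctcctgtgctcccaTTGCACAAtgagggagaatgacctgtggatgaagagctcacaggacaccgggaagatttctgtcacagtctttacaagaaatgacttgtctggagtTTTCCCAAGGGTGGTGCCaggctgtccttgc
Saa2, chr7:46751583-46751777, plus strand: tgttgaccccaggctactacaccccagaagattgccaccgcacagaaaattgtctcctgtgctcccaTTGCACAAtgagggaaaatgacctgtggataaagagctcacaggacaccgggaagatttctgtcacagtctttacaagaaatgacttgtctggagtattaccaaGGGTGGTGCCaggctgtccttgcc
Lrg1, chr17:56122002-56122196, minus strand: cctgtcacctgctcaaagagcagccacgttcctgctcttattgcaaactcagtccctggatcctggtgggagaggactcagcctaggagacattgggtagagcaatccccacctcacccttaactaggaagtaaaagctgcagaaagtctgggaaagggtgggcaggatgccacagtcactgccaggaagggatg
Pglyrp1, chr7:18884440-18884634, plus strand: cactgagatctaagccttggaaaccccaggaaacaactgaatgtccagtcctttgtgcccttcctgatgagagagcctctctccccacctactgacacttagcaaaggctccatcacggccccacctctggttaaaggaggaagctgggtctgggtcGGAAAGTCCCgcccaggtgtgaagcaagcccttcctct
Saa3 held 4 C/EBP matches and no NF-kB match in this window, whereas Saa1 held 2 and Saa2 held 1 C/EBP match, each with 1 NF-kB match. The first C/EBP match of Saa1 and of Saa2 had the same letters, TTGCACAA, and so did their NF-kB match, GGGTGGTGCC. The second C/EBP match of Saa1, TTTCCCAA, directly preceded its NF-kB match, and the sequence of Saa2 at that place did not match. Pglyrp1 held 1 NF-kB match, GGAAAGTCCC, and Lrg1 held no match of any of the 3 patterns. None of the 5 windows held the STAT pattern, and no matches overlapped. Among 32851 promoter windows of the same length, 31.8% held at least 1 C/EBP match, 0.32% held at least 4, 36.3% held an NF-kB match and 5.64% a STAT match. Such matches describe letters and do not show binding.

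Saa3 was far higher in fl/fl than in wt/wt. Saa3 (ENSMUSG00000040026) lies at chr7:46711998-46715700 on the minus strand (GRCm38). It held 229 and 309 counts in wt/wt 1 and wt/wt 2, while fl/fl 1 held 20750 and fl/fl 2 held 2872. In TMM-scaled CPM these were 10.3 and 11.4 against 1208 and 164. The wt/wt libraries were nearly alike, both fl/fl libraries lay above them, and fl/fl 1 was 7.37 times fl/fl 2. The mean was 10.8 ± 0.776 CPM in wt/wt and 686 ± 738 CPM in fl/fl (SD, n = 2 each), so the ratio of means, 63.3, rests largely on fl/fl 1. Taken alone, fl/fl 1 was 112 times and fl/fl 2 was 15.1 times the wt/wt mean.

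Saa1 (ENSMUSG00000074115; chr7:46740497-46742980, minus strand), the circulating liver isoform, held 0 counts in both wt/wt libraries, and 120 and 18 counts in fl/fl 1 and fl/fl 2. These are 6.99 and 1.03 CPM, a mean of 4.01 ± 4.21 (SD, n = 2). The limit that 0 counts allow, 3 counts, lies at 0.135 CPM in wt/wt 1 and 0.111 CPM in wt/wt 2, so Saa1 was at least 57.0-fold higher in fl/fl 1 and at least 8.38-fold higher in fl/fl 2 than the mean of these limits. Such limits cover counting error only, because copies made by PCR are not independent molecules. Its ratio of fl/fl 1 to fl/fl 2 was 6.80, close in size to the 7.37 of Saa3. The 9 stretches of 50 bases that Saa3 shares are all shared with Saa1, and how shared reads were counted is not stated. Whether reads of Saa3 were counted as Saa1 was not tested, so the fold limits of Saa1 carry this uncertainty too.

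Saa2 (ENSMUSG00000057465; chr7:46751790-46754313, plus strand), the other liver isoform, held 10 and 3 counts in wt/wt and 172 and 4 counts in fl/fl 1 and fl/fl 2. In CPM these were 0.449 and 0.111 against 10.0 and 0.228. Only fl/fl 1 was high, and fl/fl 2 lay below wt/wt 1, so the groups overlapped. Saa2 in fl/fl 1 was 35.8 times the wt/wt mean, while fl/fl 2 was 0.816 times it.

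Saa3 supplied nearly all serum amyloid counts in every library. Its share of the counts of Saa1, Saa2, Saa3 and Saa4 was 95.8% (95% exact binomial interval 92.4 to 98.0) of 239 counts in wt/wt 1 and 99.0% (97.2 to 99.8) of 312 in wt/wt 2. In fl/fl 1 the Saa3 share was 98.6% (98.4 to 98.8) of 21045 counts, and in fl/fl 2 it was 99.1% (98.7 to 99.4) of 2898. The intervals cover counting error only. The share of Saa3 thus stayed above 95% throughout, while the summed counts ran from 239 to 21045. Saa4, the constitutive liver isoform, had 0, 0, 3 and 4 counts in wt/wt 1, wt/wt 2, fl/fl 1 and fl/fl 2.

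**Figure D1:**
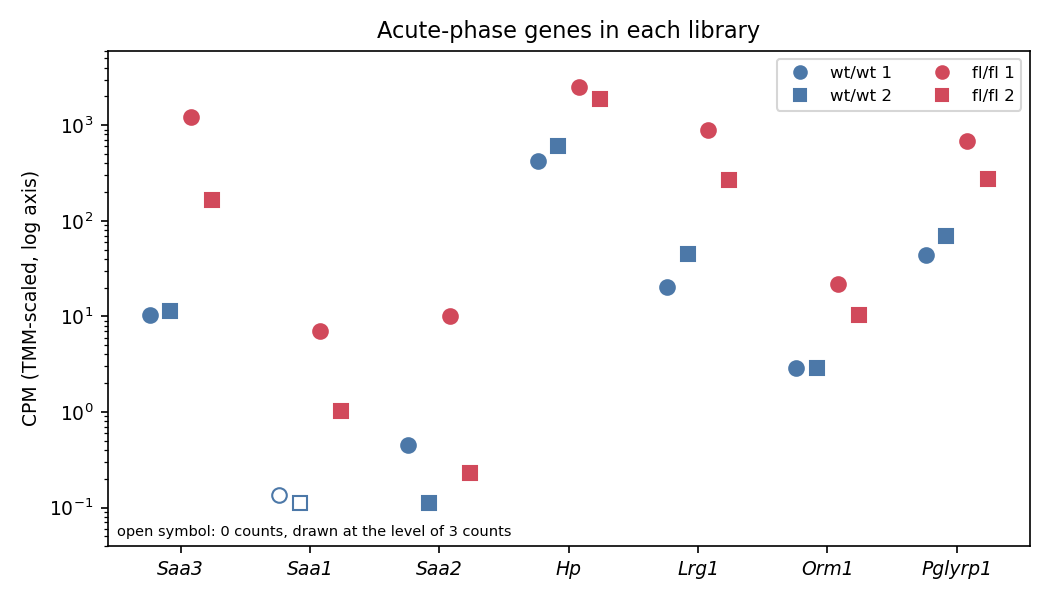
TMM-scaled CPM of the 7 acute-phase genes on a log axis, 1 symbol per library (blue, wt/wt; red, fl/fl; circles, library 1; squares, library 2), with open symbols for 0 counts drawn at the level of 3 counts. Both fl/fl libraries lie above both wt/wt libraries for each gene but Saa2, where fl/fl 2 at 0.228 CPM lies below wt/wt 1 at 0.449 CPM.

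Genes around Saa3 were looked at next. Within 100 kb on either side 12 genes are annotated, Saa3 itself included, and 5 that are not members were tested. With edgeR's quasi-likelihood test, adjusted over all tested genes, 0 of these 5 passed; 1 had an unadjusted p under 0.05. The largest difference was that of Saal1, a serum amyloid A-like gene, with 11.3 and 13.04 CPM in wt/wt against 18.2 and 17.3 CPM (log2 fold change 0.55, adjusted p = 0.210). Gtf2h1, a transcription factor subunit, was at −0.23 (adjusted p = 0.494), Sergef at −0.18 (0.788), Gm45629 at 0.06 (0.981) and Hps5 at 0.02 (0.968).

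Per kilobase of transcript, Hp was the most abundant member in 3 of the 4 libraries. Haptoglobin binds free haemoglobin and is stored in neutrophil granules. Hp (ENSMUSG00000031722; chr8:109575128-109579172, minus strand) held 9474 and 16313 counts in wt/wt against 42558 and 32583 in fl/fl. In CPM these were 426 and 601 against 2478 and 1859. The groups did not overlap, and fl/fl 1 was 1.33 times fl/fl 2, the closest pair of fl/fl values among the members. The mean was 513 ± 124 CPM in wt/wt and 2169 ± 437 CPM in fl/fl (SD, n = 2 each), a ratio of 4.23.

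Lrg1 (ENSMUSG00000037095; chr17:56119678-56122001, minus strand), a secreted protein that binds the TGF-beta co-receptor endoglin, held 449 and 1212 counts in wt/wt against 15395 and 4717 in fl/fl. In CPM these were 20.2 and 44.6 against 896 and 269. Lrg1 varied within both genotypes: wt/wt 2 was 2.21 times wt/wt 1, and fl/fl 1 was 3.33 times fl/fl 2. The mean was 32.4 ± 17.3 CPM in wt/wt and 583 ± 444 CPM in fl/fl (SD, n = 2 each), a ratio of 18.0. Against the wt/wt mean, fl/fl 1 was 27.7 times and fl/fl 2 was 8.31 times as high.

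Pglyrp1 (ENSMUSG00000030413; chr7:18871331-18890459, plus strand) lies on the same chromosome as the serum amyloid genes but far from them. It held 970 and 1870 counts in wt/wt against 11759 and 4740 in fl/fl. In CPM these were 43.6 and 68.9 against 685 and 271, without overlap of the groups. The mean was 56.2 ± 17.9 CPM in wt/wt and 478 ± 293 CPM in fl/fl (SD, n = 2 each), a ratio of 8.49, and fl/fl 1 was 2.53 times fl/fl 2.

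Orm1 (ENSMUSG00000039196; chr4:63344560-63348163, plus strand), a plasma carrier of basic drugs and lipids, was low throughout. It held 64 and 78 counts in wt/wt against 375 and 182 in fl/fl. In CPM these were 2.87 in each wt/wt library against 21.8 and 10.4 in fl/fl. The fl/fl mean was 16.1 ± 8.10 CPM (SD, n = 2), and the ratio of means was 5.61. Both fl/fl libraries were above wt/wt, and fl/fl 1 was 2.10 times fl/fl 2. Its paralogs were lower still. Orm2 held 0.314 and 0.737 CPM in wt/wt against 2.56 and 1.31 in fl/fl, and Orm3 had 2, 0, 1 and 7 counts in the 4 libraries. Because Orm1 shares stretches with both, the split among the 3 is uncertain.

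Both fl/fl libraries were above both wt/wt libraries in 6 of the 7 members. The same held for 28.1% of all tested genes, and nothing is read from the members' count, since the genotype comparison chose Saa3.

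The edgeR log2 fold change, fl/fl over wt/wt, was 5.98 ± 0.93 (SE) for Saa3, 4.17 ± 0.65 for Lrg1, 3.09 ± 0.46 for Pglyrp1, 2.48 ± 0.41 for Orm1 and 2.08 ± 0.25 for Hp. Across all tested genes the median was 0.02. The order of the 5 members remained Saa3, Lrg1, Pglyrp1, Orm1, Hp with each wt/wt library and with fl/fl 2 left out. Without fl/fl 1 the fold change of Saa3 was 3.88 and that of Lrg1 was 3.01, with Pglyrp1 at 2.22, and Orm1 (1.81) and Hp (1.82) could not be told apart. Without fl/fl 2 the values were 6.80, 4.79, 3.60, 2.92 and 2.27 in the first order. For each of the 5 except Hp the largest move came with fl/fl 1 left out, and the values of Saa3 spanned a wider range than those of Hp. For Lrg1, whose wt/wt libraries differed, the fold change was 3.66 with wt/wt 1 left out and 4.85 with wt/wt 2 left out.

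**Figure D2:**
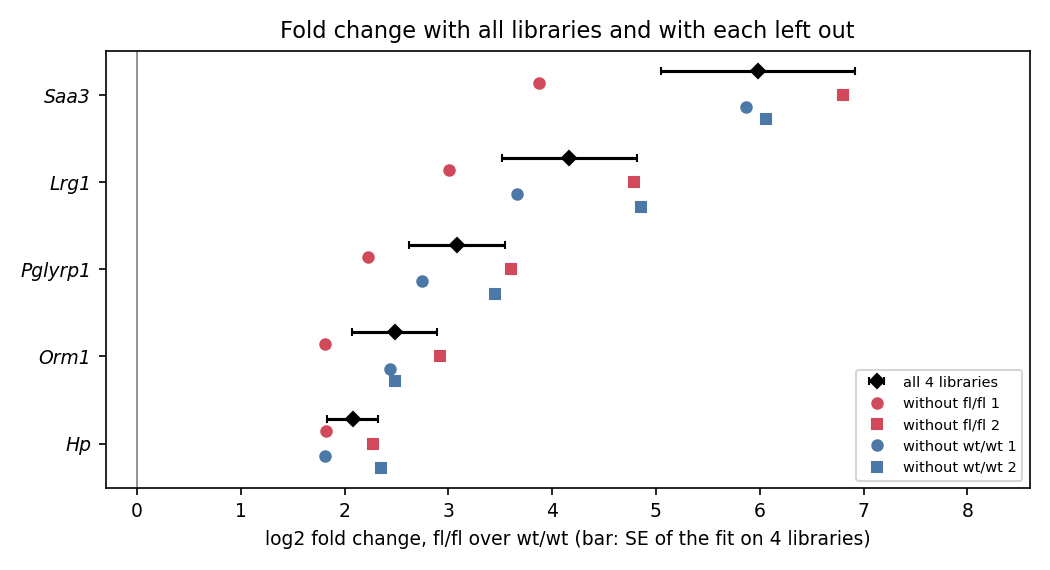
Log2 fold change (fl/fl over wt/wt) of 5 members with all 4 libraries (black diamonds, bars are the SE) and with each library left out (red, a fl/fl library left out; blue, a wt/wt library left out). Every value lies above 0, and for Saa3 the value runs from 3.88 without fl/fl 1 to 6.80 without fl/fl 2.

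Levels of different genes were compared as CPM per kilobase of the principal transcript. In wt/wt, Hp led with 316 and 447, followed by Pglyrp1 with 62.8 and 99.3. Saa3 (18.5 and 20.5) and Lrg1 (14.3 and 31.7) changed places between the wt/wt libraries, so these neighbours did not differ beyond their spread. Orm1 at 3.71 in each library came next, then Saa2 at 0.689 and 0.170, and Saa1 at 0. In fl/fl 1, Saa3 was the highest at 2177 CPM per kilobase, above Hp at 1843, Pglyrp1 at 987 and Lrg1 at 637. In fl/fl 2, Hp led at 1383 and Pglyrp1 followed at 390, then Saa3 at 295 and Lrg1 at 191. Orm1 came next after these 4 genes in all 4 libraries, at 28.2 and 13.4 CPM per kilobase in fl/fl 1 and fl/fl 2. The only members that traded the lead were Saa3 and Hp, and the exchange was in fl/fl 1 alone.

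The ratio of fl/fl 1 to fl/fl 2 ordered the members as follows: Saa2 at 43.9, from 172 and 4 counts, then Saa3 at 7.37, Saa1 at 6.80, Lrg1 at 3.33, Pglyrp1 at 2.53, Orm1 at 2.10 and Hp at 1.33. The same ratio was 2.39 for the summed CPM of 15 mature neutrophil markers and 2.51 for 13 granulocyte precursor markers, near those of Pglyrp1 and Orm1. With 1 library each there is no test of these differences, and the sex of the mice differed between these libraries as well.

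Markers of granulocytes moved with the members. The mature neutrophil markers summed to 2889 and 3829 CPM in wt/wt and to 29765 and 12461 CPM in fl/fl 1 and fl/fl 2, or 6.28 times higher in the fl/fl mean. All 15 were higher in both fl/fl libraries, 8 of the 15 passed edgeR's test (9 without fl/fl 1), and their median log2 fold change was 2.19. Of all tested genes, 28.1% were higher in both fl/fl libraries and 2.69% passed as higher (2.84% without fl/fl 1). S100a9, a neutrophil calcium-binding protein, held 923 and 1200 CPM in wt/wt against 12617 and 5566 in fl/fl, and S100a8, its partner, 526 and 498 against 8792 and 3084. The granulocyte precursor markers summed to 2555 and 1955 CPM in wt/wt and to 23908 and 9527 CPM in fl/fl, 7.41 times higher. Of the 13, 11 passed, with a median log2 fold change of 3.13. Ctsg was among the 11, with 9 and 25 counts in wt/wt. It passed the filter on low counts only through the fl/fl libraries, so nothing is read from its call. Their most abundant members were Chil3, which monocytes also express, with 1370 and 714 CPM in wt/wt against 8404 and 2069 in fl/fl, and Ngp, with 439 and 477 against 5371 and 2393. Without either wt/wt library no gene of the whole table passed. What part these cells have in the members' differences was not tested.

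To show the members beside the granulocyte markers, their CPM were divided by the summed neutrophil markers, a description chosen after the values were seen. Hp held 147 and 157 CPM per 1000 marker CPM in wt/wt against 83.3 and 149 in fl/fl 1 and fl/fl 2, so its fl/fl mean was 0.764 times that of wt/wt. Orm1 held 0.995 and 0.750 against 0.734 and 0.834 (0.898 times). For both genes the groups overlapped. Pglyrp1 held 15.1 and 18.0 against 23.0 and 21.7 (1.35 times). Lrg1 held 6.98 and 11.7 against 30.1 and 21.6 (2.77 times), and Saa3 held 3.56 and 2.97 against 40.6 and 13.2 (8.23 times). Pglyrp1, Lrg1 and Saa3 were thus above wt/wt in both fl/fl libraries also per unit of neutrophil marker, and Saa3 had the largest ratio of these. With the precursor markers as divisor the ratios were 6.88 for Saa3, 2.14 for Lrg1, 1.09 for Pglyrp1, 0.772 for Orm1 and 0.630 for Hp, in the same order. Pglyrp1 then held 17.1 and 35.2 in wt/wt against 28.6 and 28.4 in fl/fl, so that its groups overlapped with this divisor. The precursor sum was mostly Chil3, Ngp, Ltf, Lcn2 and Camp. In fl/fl the neutrophil sum was mostly S100a8 and S100a9. On the precursor list, Mpo (log2 fold change 6.13), Elane (5.55) and Ctsg (5.53) rose about as much as Saa3 (5.98), and the other markers less. For Ctsg this rests on 9 and 25 counts in wt/wt. The ratios therefore depend on the markers in the sum and are not levels per cell.

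**Figure D3:**
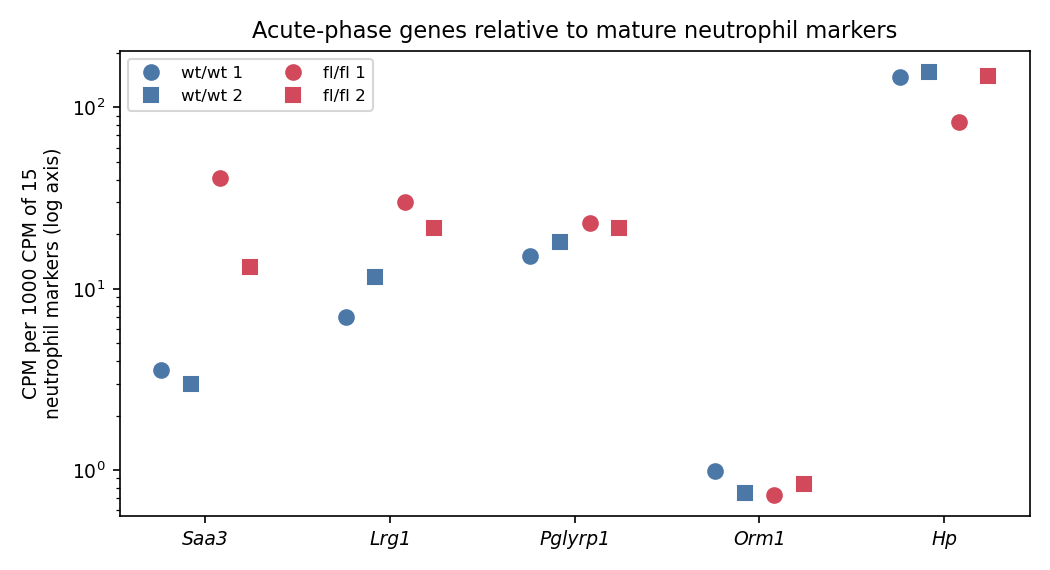
CPM of 5 members per 1000 CPM of the 15 summed mature neutrophil markers, on a log axis, 1 symbol per library (blue, wt/wt; red, fl/fl; circles, library 1; squares, library 2). Saa3, Lrg1 and Pglyrp1 stand higher in both fl/fl libraries, whereas Hp in fl/fl 1 (83.3) lies below both wt/wt libraries (147 and 157).

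Hepatocytes are the main source of Saa1, Saa2, Hp and Orm1 in the body, so their markers are given beside the members. The 22 hepatocyte markers summed to 299 and 405 CPM in wt/wt and to 233 and 479 CPM in fl/fl 1 and fl/fl 2. Most of this was Trf (transferrin), at 215, 350, 200 and 324 CPM, which macrophages also express. The other 21 summed to 83.7 and 54.8 CPM in wt/wt, to 33.3 CPM in fl/fl 1 and to 154 CPM in fl/fl 2, a set chosen after the values were seen. Alb, the albumin gene, held 40.0 and 26.7 CPM in wt/wt, 9.55 in fl/fl 1 and 60.7 in fl/fl 2. Each of the 21 was lower in fl/fl 1 than in fl/fl 2, with a ratio of fl/fl 1 to fl/fl 2 of 0.216. The 7 members had the opposite order: fl/fl 1 was above fl/fl 2 in each, and Saa1, Saa2 and Saa3 were highest in the library where the summed hepatocyte markers were lowest. This order rests on 1 library each, and these libraries also differed in sex. What part hepatocyte RNA has in the members' differences was not tested. Of 19 tested hepatocyte markers, 0 passed edgeR's test; 1 had an unadjusted p under 0.05, limma-voom called 0 and DESeq2 called 1 higher, and without fl/fl 1 edgeR called 4 higher. Without fl/fl 2 the direction of the list turned: 0 were called higher and 2 lower, and the median log2 fold change was −0.75, against 0.83 with all libraries. Over all genes DESeq2 called 5.81% higher and 6.18% lower, limma-voom 1.89% and 3.04%, edgeR without fl/fl 1 2.84% and 4.83%, and edgeR without fl/fl 2 6.23% and 5.36%.

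**Figure D4:**
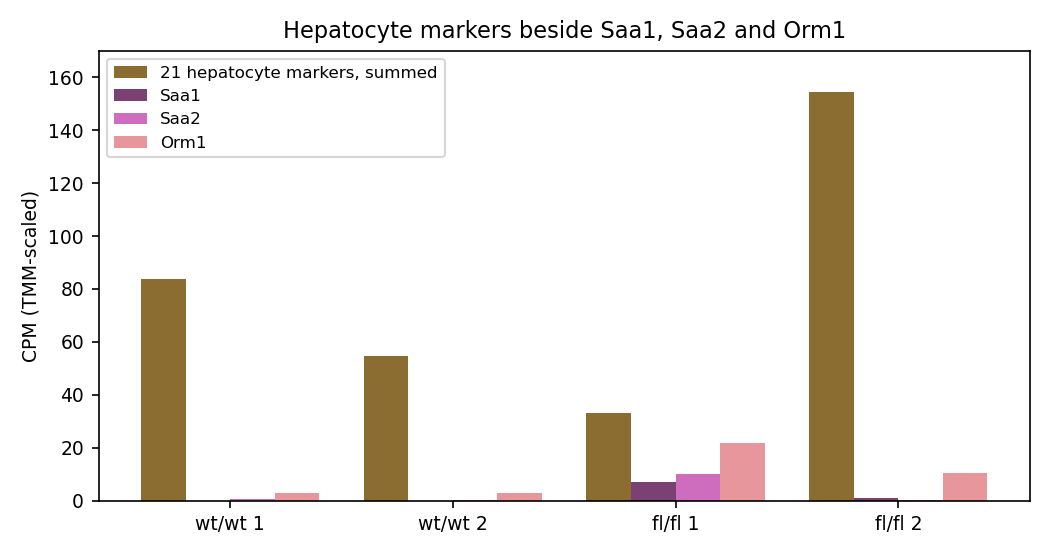
Summed TMM-scaled CPM of 21 hepatocyte markers (transferrin left out) and CPM of Saa1, Saa2 and Orm1 in each library, as bars from 0. The marker sum is lowest in fl/fl 1 (33.3 CPM), where Saa1, Saa2 and Orm1 are highest, and highest in fl/fl 2 (154 CPM).

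Macrophages are a known source of Saa3. The 13 Kupffer cell and macrophage markers summed to 1094 and 1043 CPM in wt/wt and to 447 and 469 CPM in fl/fl. Of 9 tested, 3 passed as lower, C1qa, C1qb and C1qc, and 6 did not pass, where 3.16% of all tested genes fell. Most of the wt/wt sum and of its fall came from these 3 complement genes. C1qa held 231 and 230 CPM in wt/wt against 41.1 and 12.3 in fl/fl, and C1qc 161 and 152 against 32.1 and 10.5. The defining Kupffer cell markers were at or near 0: Timd4 had at most 1 count, Vsig4 at most 12 and Clec4f at most 15 in a library. C1qb, a complement subunit, held 342 and 332 CPM in wt/wt against 70.5 and 24.4 in fl/fl, while Id3 held 169 and 125 CPM against 142 and 254. Classical monocyte markers summed to 12611, 10109, 16980 and 10517 CPM in wt/wt 1, wt/wt 2, fl/fl 1 and fl/fl 2, with groups that overlapped. The overlap rested on Chil3, also on the precursor list, at 1370, 714, 8404 and 2069 CPM in the same order. Without Chil3 both fl/fl sums lay below both wt/wt sums, a difference that lay in Fn1. Fn1, a fibronectin gene that passed as lower with edgeR (adjusted p = 0.0212), held 4708 and 3806 CPM in wt/wt against 1777 and 1266. The monocyte sum thus depended on these genes. The sums of endothelial markers were 14.99 to 19.99 CPM, those of stellate cell markers 3.50 to 24.7 and those of platelet markers 5.30 to 13.4. B cell markers summed to 76.5 to 151 CPM, with groups that overlapped. The sums of some small sets were higher in both fl/fl libraries. Of all tested genes, 2.69% passed as higher and 28.1% were higher in both fl/fl libraries. T and NK cell markers summed to 4.76 and 4.20 CPM in wt/wt against 29.9 and 23.2 in fl/fl, and 2 of 4 tested passed as higher, Nkg7 (adjusted p = 0.0180) and Gzma (0.0135), both genes of cytotoxic granules. The rise of this sum lay in Nkg7 and Gzma. Cd3d (log2 fold change 0.45) and Klrb1c (0.26) did not pass. Ncr1 had 18 and 8 counts in wt/wt against 1 and 4, and Trac 4 and 5 against 1 and 0. Eosinophil and basophil markers summed to 6.20 and 11.6 CPM against 47.3 and 23.9. Of 6 tested, 1 was called higher, Prg2, with 0 counts in both wt/wt libraries and 17 and 47 in fl/fl. Prg2 passed the filter on low counts only through the fl/fl libraries, so nothing is read from its call. Erythroid markers summed to 20.8 and 20.4 CPM against 36.7 and 95.2, and all 4 tested were higher in both fl/fl libraries. Their part in the members' differences was not tested either. Prg2, Nkg7 and Gzma were named after their values were seen. Bile duct markers summed to 10.7 to 361 CPM, nearly all from Spp1, with Krt19 and Epcam at 0 in all libraries.

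The genes whose pattern over the 4 libraries was most like that of each member were taken as those with the smallest root mean square distance of centred log2 CPM, among 9317 genes with a mean of at least 5 CPM. With 4 libraries of 2 genotypes this is a description without a test. Saa3 was nearest to Mpo (distance 0.367), Ctsg (0.399), Lipg (0.474), Elane (0.514) and B230303A05Rik (0.534). Mpo, Ctsg and Elane encode proteins of primary granules, made in granulocyte precursors. Mpo held 2.56 and 2.14 CPM in wt/wt against 267 and 62.7 in fl/fl, and Elane 5.21 and 3.02 against 296 and 87.8. Saa1 was nearest to Saa3 itself (0.249), with which it shares some stretches of sequence. Pglyrp1 was nearest to S100a9 (0.115), Krt83 (0.131) and Cldn15 (0.132). Lrg1 was nearest to Mcam (0.198), Cmah (0.208) and Tmem40 (0.274). Orm1 was nearest to Adpgk (0.0603), Optn (0.0842) and Dut (0.0863), and Hp to Dab2ip (0.0574), Hdc (0.108) and Hip1r (0.113). Among the members, Hp and Orm1 were 0.319 apart and Orm1 and Pglyrp1 0.400, whereas Saa3 was 0.852 from Lrg1 and 1.85 from Hp.

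The other genes of the acute-phase response were taken as a list of 30, of which 17 were tested. In fl/fl 4 rose, 0 fell and 13 did not pass the edgeR test, against 2.69% of all tested genes that rose and 3.16% that fell. The median log2 fold change was 0.89, against 0.02 over all genes tested. For the count of 0 lower, 1 gene had an unadjusted p under 0.05, and DESeq2 and limma-voom also called 0. Without fl/fl 1 the count higher was 3. Lcn2, an iron-siderophore binding protein of neutrophils that is also on the precursor list, held 119 and 151 CPM in wt/wt against 2876 and 816 in fl/fl (a log2 fold change of 3.77 ± 0.57, adjusted p = 0.0197; 2.56 without fl/fl 1). Lbp, which carries bacterial lipopolysaccharide to CD14, held 6.15 and 6.23 CPM against 63.0 and 26.3 (2.85 ± 0.41, adjusted p = 0.0191; 2.04 without fl/fl 1). C4b, a complement component with a near-identical paralog that makes its count uncertain, held 33.5 and 13.7 CPM against 124 and 75.4 (2.08 ± 0.44, adjusted p = 0.0431; 2.81 without wt/wt 1 and 1.57 without wt/wt 2). C3, the central complement component, held 498 and 467 CPM against 788 and 805 (0.72 ± 0.16, adjusted p = 0.0484), and its call ended with relative log expression size factors (adjusted p = 0.0527), upper quartile scaling (0.0521) and without fl/fl 1 (0.0562). In Lcn2, Lbp and C4b, as in the 7 members, fl/fl 1 was the highest library, while C3 was alike in both fl/fl libraries.

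The fibrinogen chains Fga, Fgb and Fgg, made by hepatocytes, were at log2 fold changes of −0.17, −0.13 and 0.13, and none passed. Other genes of the list lay higher by edgeR: Ambp at 1.20 (adjusted p = 0.170), Itih4 at 0.97 (0.407), Hpx at 0.89 (0.197) and Itih3 at 0.72 (0.668). Cp was at −0.21 (0.874). None of these passed either, and they were named after their values were seen. Serpina3g, a protease inhibitor, was at 0.94 (adjusted p = 0.113) and Orm2 at 1.86 (adjusted p = 0.208). Il1rn, the interleukin-1 receptor antagonist, was at −0.64. A2m had 0 counts in all libraries.

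Regulators of acute-phase transcription formed a list of 32 cytokines, receptors and factors, of which 30 were tested. Of these 2 rose, 2 fell and 26 did not pass, where 2.69% of all tested genes rose and 3.16% fell. Counts this small cannot place the list against all genes. Its median log2 fold change was −0.04, against 0.02 over all genes. Cebpe, the C/EBP factor of granulocyte maturation, rose from 9.70 and 9.58 CPM in wt/wt to 110 and 45.4 in fl/fl (3.01 ± 0.41, adjusted p = 0.0163, edgeR; 2.19 without fl/fl 1). It is also on the precursor list. Lifr, a receptor chain for leukaemia inhibitory factor, rose from 24.2 and 27.2 CPM to 45.5 and 45.3 (0.82 ± 0.17, adjusted p = 0.0431; 0.0679 without fl/fl 1), and Lif itself fell from 79.5 and 77.99 CPM to 22.9 and 15.1 (−2.05 ± 0.23, adjusted p = 0.0120). Cebpa, the C/EBP factor of early myeloid cells and hepatocytes, fell from 335 and 322 CPM to 200 and 201 (−0.71 ± 0.15, adjusted p = 0.0443), a call that ended with either fl/fl library left out (0.0550 and 0.0501).

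The classical inducers did not pass the test with all 4 libraries. Il6 held 12.1 and 10.7 CPM in wt/wt against 5.998 and 11.5 in fl/fl (a log2 fold change of −0.38, adjusted p = 0.602, edgeR). Il1b held 1927 and 1659 CPM against 967 and 1523 (−0.53, adjusted p = 0.272), but was called lower with fl/fl 2 left out (−0.89, adjusted p = 0.0203). Stat3 (0.04, adjusted p = 0.916), Cebpb (0.30, 0.326) and Nfkbiz (−0.28, 0.649; 0.21 with wt/wt 1 left out) did not pass either. Cebpd, the acute-phase C/EBP factor, held 78.3 and 100 CPM against 146 and 175 (0.85 ± 0.19) and missed the threshold at an adjusted p of 0.0526 with edgeR, which was 0.0481 with limma-voom, 0.00412 with DESeq2 and 0.0287 without fl/fl 1. Of the 4 C/EBP genes, Cebpe rose, Cebpa fell, and Cebpb and Cebpd did not pass.

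Receptors and partners of the members formed a list of 32, of which 29 were tested; 1 rose, 6 fell and 22 did not pass, where 2.69% of all tested genes rose and 3.16% fell. The median log2 fold change was −0.17, against 0.02 over all genes. Fpr2, a formyl peptide receptor that serum amyloid A can activate, rose from 29.1 and 30.5 CPM to 175 and 71.4 (2.05 ± 0.39, adjusted p = 0.0342, edgeR; 1.22 without fl/fl 1). Tlr2, another reported receptor for serum amyloid A, was at −0.76 (adjusted p = 0.105), and was called lower with DESeq2 (0.0197) and with no filter (0.00136). For haptoglobin, Cd163, its scavenger receptor, was low, at 1.05 to 5.08 CPM, and its log2 fold change of 0.15 (adjusted p = 0.935) had no stable sign, at 0.84 with fl/fl 1 left out, −1.39 with fl/fl 2 left out and −0.22 with limma-voom. Hmox1, which degrades the haem taken up through it, fell (−0.85 ± 0.16, adjusted p = 0.0306). For Lrg1, 3 genes of TGF-beta signalling fell, of which Tgfbr1, the type I receptor, went from 201 and 171 CPM to 53.2 and 50.6 (−1.84 ± 0.17, adjusted p = 0.00879), and Tgfb1, the ligand, from 820 and 893 to 431 and 465 (−0.94 ± 0.16, adjusted p = 0.0267). Eng, the endoglin gene, was at −0.88 (adjusted p = 0.0957) and Acvrl1 at 0.01. For Pglyrp1, Trem1, its reported receptor, held 205 and 214 CPM against 550 and 237 (0.91, adjusted p = 0.200), high in fl/fl 1 only, and was called higher with fl/fl 2 left out (1.39, adjusted p = 0.00134) and with no filter (0.000134). Hspa1b, whose reads can be shared with Hspa1a, and Tgfbr2 fell as well, and were named after their values were seen.

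**Figure D5:**
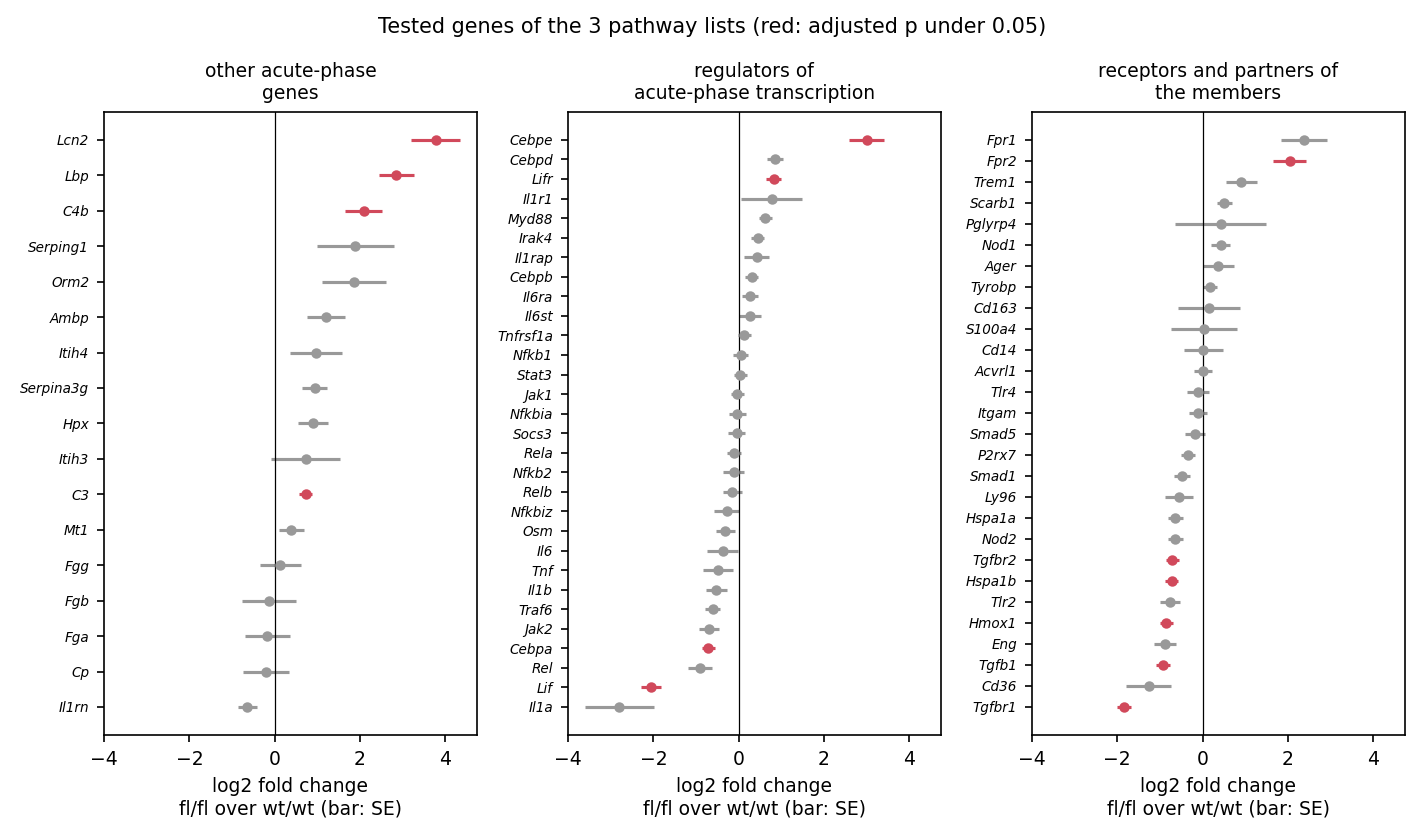
Log2 fold change (fl/fl over wt/wt) of tested genes of 3 lists (1 gene of the third list is not drawn), with bars for the SE and red for an adjusted p under 0.05 (edgeR, all tested genes). Lcn2, Lbp, C4b and C3 are red on the right in the first panel, Cebpe stands apart at 3.01 in the second, and in the third the red genes lie on the left except Fpr2.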

How the data were processed

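Poly(A) RNA of sorted liver myeloid cells was sequenced in 4 libraries. The authors deposited raw counts per Ensembl gene as whole numbers without normalization. The submitters' processing notes list FastQC 0.11.5, Trimmomatic 0.33, STAR 2.5.0 and the build GRCm38. How reads were counted per gene, with what strand setting and gene models, is not stated in the sources. Without strand, reads of antisense partners cannot be told apart, but no exon of a member overlaps another gene in GENCODE M21 (GRCm38), which supplied symbols and positions. For 260 identifiers no symbol was found.

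The comparison was fitted in R 4.3.3 with edgeR 4.0.16. Genes were filtered by filterByExpr (group, minimum count 10), which kept 13496 of the 22696 with any count, scaled by TMM and tested by quasi-likelihood F, two-sided, with no covariate. Adjustment followed Benjamini and Hochberg across the 13496 genes, and passing means an adjusted p under 0.05. Fold changes carry a prior count of 0.125, and each SE is the size of the log2 fold change divided by the root of its F. The biological coefficient of variation was 25.5%. An exact permutation test of 2 libraries against 2 cannot go below 0.333. On simulated data of 13496 genes, the share of 50 changed genes found was 62% at a log2 change of 1 and 100% at 2, 3 and 4. There were 11 calls among 12885 unchanged genes. The changed genes were drawn from those with a mean level at or above the median. Both groups were given the same dispersion trend. The shares therefore do not cover low genes, or genes that varied more between libraries, as between fl/fl 1 and fl/fl 2. Totals of 17154042 to 26441014 counts put 3 counts, the most that 0 counts allow, at 0.111 to 0.175 CPM.

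The members and all lists were chosen with earlier results of these data known. Named were all members, Il10ra, in each list up to 5 genes with the smallest p plus genes picked by role, the 2 most expressed markers of the cell types described, and the genes nearest to each member by root mean square distance of log2 CPM (prior count 2). Alternatives were other scalings and filters, a prior count of 5, DESeq2 1.42.0, voom of limma 3.58.1, the replicate number as a block, and each library left out. The result of 1 gene that this rule names is not reported here.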

Additional observations from a re-analysis of the deposited data

How the results depend on the processing

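Leaving out a library leaves its group with 1, whose spread is then borrowed from the other genotype. With wt/wt 1 left out edgeR called 0 genes (1532 at an unadjusted p under 0.05), and likewise 0 with wt/wt 2 left out (2264). Leaving out single libraries gave log2 fold changes of 3.88 to 6.80 for Saa3, 3.01 to 4.85 for Lrg1, 2.22 to 3.60 for Pglyrp1, 1.81 to 2.92 for Orm1 and 1.81 to 2.35 for Hp, and 0 to 841 genes higher and 0 to 724 lower. It gave 0 to 5 of the other acute-phase genes higher and 0 to 1 lower, 0 to 2 regulators higher and 0 to 4 lower, and 0 to 3 receptors and partners higher and 0 to 6 lower. Over all genes, no filter gave 1017 higher and 1071 lower, DESeq2 784 and 834, against 363 and 427. No filter gave 1 other acute-phase gene lower, 4 regulators higher and 6 lower, and 3 receptors higher and 11 lower; DESeq2 gave 4 regulators higher and 4 lower, and 2 receptors higher and 10 lower. Library size scaling, upper quartile scaling and a filter at 5 CPM each gave 2 receptors higher. The replicate number as a block gave 602 genes higher and 2 receptors higher. With the block the log2 fold change was 5.35 for Saa3, 4.02 for Lrg1, 2.97 for Pglyrp1, 2.39 for Orm1 and 2.09 for Hp, and the adjusted p was 0.0618 for C3, 0.0526 for Cebpa and 0.0210 for Cebpd. In the labels, same-numbered libraries share only a number. Across tested genes, the deviations of wt/wt 1 and fl/fl 1 from their group means correlated at 0.0215. With 2 libraries in each group the other pair mirrors this one, so the value cannot decide whether libraries were paired. The cause of these moves was not tested. Among the named genes refitted under each setting, no member and no passing list gene changed direction. Saa2 was not among these, because it was fitted only with no filter. Its value in fl/fl 2 was 0.816 times the wt/wt mean. Genes that did not pass and turned sign under at least 1 setting were Cd163 (−1.39 to 0.84), Nfkbiz (0.21 without wt/wt 1), Stat3, Sergef, Gm45629 and Hps5. The hepatocyte median turned without fl/fl 2 (−0.75). Other scalings shifted the median of all genes by −0.0265 to −0.0137. Depth limits Saa1 and Saa2 in wt/wt, at 0 to 10 counts a library.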
